A study of Musculus with 2 samples.

Results

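The matrix proteases Mmp2, Mmp3, Mmp14, Adamts1, Adamts4 and Adamts5 and the tissue inhibitors of metalloproteinases Timp1, Timp2, Timp3 and Timp4 were followed through the cell types of mouse subcutaneous white adipose tissue (sWAT). These are 10 of the 32245 gene symbols in the deposited tables, listed by name as a functional group. The rule that lists them names genes and uses no measured value, but the list was chosen with earlier results of these data known. The assay was single-cell RNA sequencing (10x Genomics) of the stromal vascular fraction (SVF), the cells that remain once mature fat cells are removed. There was 1 control library (genotype WT) and 1 library labelled LPCAT3-AKO (genotype LPCAT3 knockout). The labels give the tissue donors of both libraries an age of 5 weeks, while the series text gives 2 months. For both libraries the tissue was digested with 0.3% type I collagenase for 40 min, and red cells were lysed. Lpcat3 encodes a lysophospholipid acyltransferase. The number of mice per library, their sex, the promoter or cell type of the deletion and the deleted exons are not stated in the labels.

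Matrix metalloproteinases are zinc enzymes that cut collagens, proteoglycans and other proteins outside the cell. Most are secreted as inactive precursors, and Mmp14 is instead held in the cell membrane, where together with Timp2 it activates the precursor of Mmp2. The ADAMTS enzymes Adamts1, Adamts4 and Adamts5 are secreted proteoglycanases that cut versican and aggrecan, and TIMPs block both families by binding the catalytic site, with Timp3 the main inhibitor of the ADAMTS enzymes. In adipose tissue, remodelling of the matrix by such enzymes accompanies the growth of fat cells and vessels.

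With 1 library per group there is no replicate, so no test between genotypes was made and every difference describes these 2 libraries. Intervals are 95% intervals that cover counting error only. Levels are the UMIs of a gene scaled to all UMIs of the same cells, on the usual CPM scale, each UMI standing for 1 captured transcript. A gene was called higher or lower in the LPCAT3-AKO library when its level reached 20 CPM in at least 1 library, the levels differed at least 1.5-fold and the interval of their ratio excluded 1. Cells were sorted into gates by the number of different marker genes with a UMI, and gates are named by their markers. 10x libraries count a transcript at one of its ends, not along its length, so levels are compared within a gene only.

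The control library held 13831 barcodes and 111669076 UMIs, and the LPCAT3-AKO library 12806 barcodes and 119355147 UMIs. After filtering and doublet removal, 11191 and 10576 cells were used, with medians of 8078 and 8599.5 UMIs, and the libraries shared 58 barcodes. The targeted gene did not separate them: Lpcat3 had 26.7 CPM over all control cells and 30.6 CPM over all cells of the library labelled LPCAT3-AKO. The deleted exons and the cell type of the deletion are not stated, so this level does not check the label. The fibroblast gate (8 or more of 10 markers, which include Pdgfra, Dcn and Col1a1) held 5497 control and 5644 LPCAT3-AKO cells. Within it were 3458 and 3159 Dpp4-high cells, 733 and 1042 Icam1-high cells, 144 and 237 F3-high cells, 96 and 130 cells with Ccn5, Mfap4 and Cxcl13, 477 and 211 interferon-high cells, 8 and 44 dividing cells, and 581 and 821 other fibroblasts. The macrophage/monocyte gate held 3627 and 2749 cells, the vascular endothelial gate 91 and 103, a gate of cells with both endothelial and mural markers 93 and 122, the mural gate 11 and 24, and the epithelial gate 104 and 185. The epithelial cells carried luminal markers (14851 and 13864 CPM summed) and few basal ones (25.3 and 28.8 CPM).

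The secreted proteases Mmp2 and Adamts5 and the inhibitor Timp2 were genes of the fibroblast gate in both libraries, and their levels there were close. Mmp2 (ENSMUSG00000031740), gelatinase A, which cuts denatured and basement membrane collagen, had 966 CPM in control and 1079 CPM in LPCAT3-AKO fibroblasts, a ratio of 1.12 (1.10 to 1.13). At least 1 Mmp2 UMI was seen in 98.1% and 98.4% of these cells. Mmp2 was thus seen in nearly every fibroblast, and in vascular endothelial cells it had 24.3 and 23.7 CPM. Adamts5 (ENSMUSG00000022894) had 817 and 816 CPM, a ratio of 0.998 (0.985 to 1.01). Timp2 (ENSMUSG00000017466), the inhibitor that also takes part in Mmp2 activation, had 3014 and 2982 CPM, a ratio of 0.989 (0.982 to 0.996).

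Of the 10 members, 2 were called higher in LPCAT3-AKO fibroblasts and none lower, against 1.32% of the 6048 genes at 20 CPM called higher and 0.81% called lower. Both were proteases. Mmp3 (ENSMUSG00000043613), stromelysin-1, an enzyme of broad range that cuts proteoglycans and fibronectin, had 292 and 452 CPM, a ratio of 1.55 (1.52 to 1.58). Adamts4 (ENSMUSG00000006403), an aggrecanase, had 33.5 and 85.0 CPM, a ratio of 2.54 (2.40 to 2.69). The membrane protease Mmp14 (ENSMUSG00000000957) at 221 and 278 CPM (1.26, 1.23 to 1.29) and the inhibitor Timp1 (ENSMUSG00000001131) at 47.9 and 70.0 CPM (1.46, 1.39 to 1.54) lay under the ratio of 1.5, which Timp1 passed at 1.59 without interferon-high and dividing fibroblasts. Adamts1 (ENSMUSG00000022893) had 209 and 210.4 CPM, and Timp3 (ENSMUSG00000020044) had 1196 and 1227 CPM, so both were near equal in the libraries. Timp4 (ENSMUSG00000030317) was nearly absent from fibroblasts, with 20 UMIs in control and 22 in LPCAT3-AKO. Over the 9 members at 20 CPM the median log2 ratio was 0.16, and over all genes at 20 CPM it was -0.00.

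The 2 calls differed in how they stood against the make-up of the gate. The LPCAT3-AKO fibroblasts held more Icam1-high and fewer Dpp4-high cells, and the summed Icam1-high markers were 2439.7 CPM in control and 3878 CPM in LPCAT3-AKO fibroblasts. With the fibroblast states weighted alike in both libraries, the Mmp3 ratio was 1.30 and no longer a call, while that of Adamts4 was 2.19 and still one. Markers of other cells were low in both: the macrophage list summed to 216 and 218 CPM, the mural list to 41.8 and 57.9 CPM and the haemoglobin genes of red cells to 32.3 and 83.5 CPM. The part of these in the fibroblast values was not tested.

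**Figure D1:**
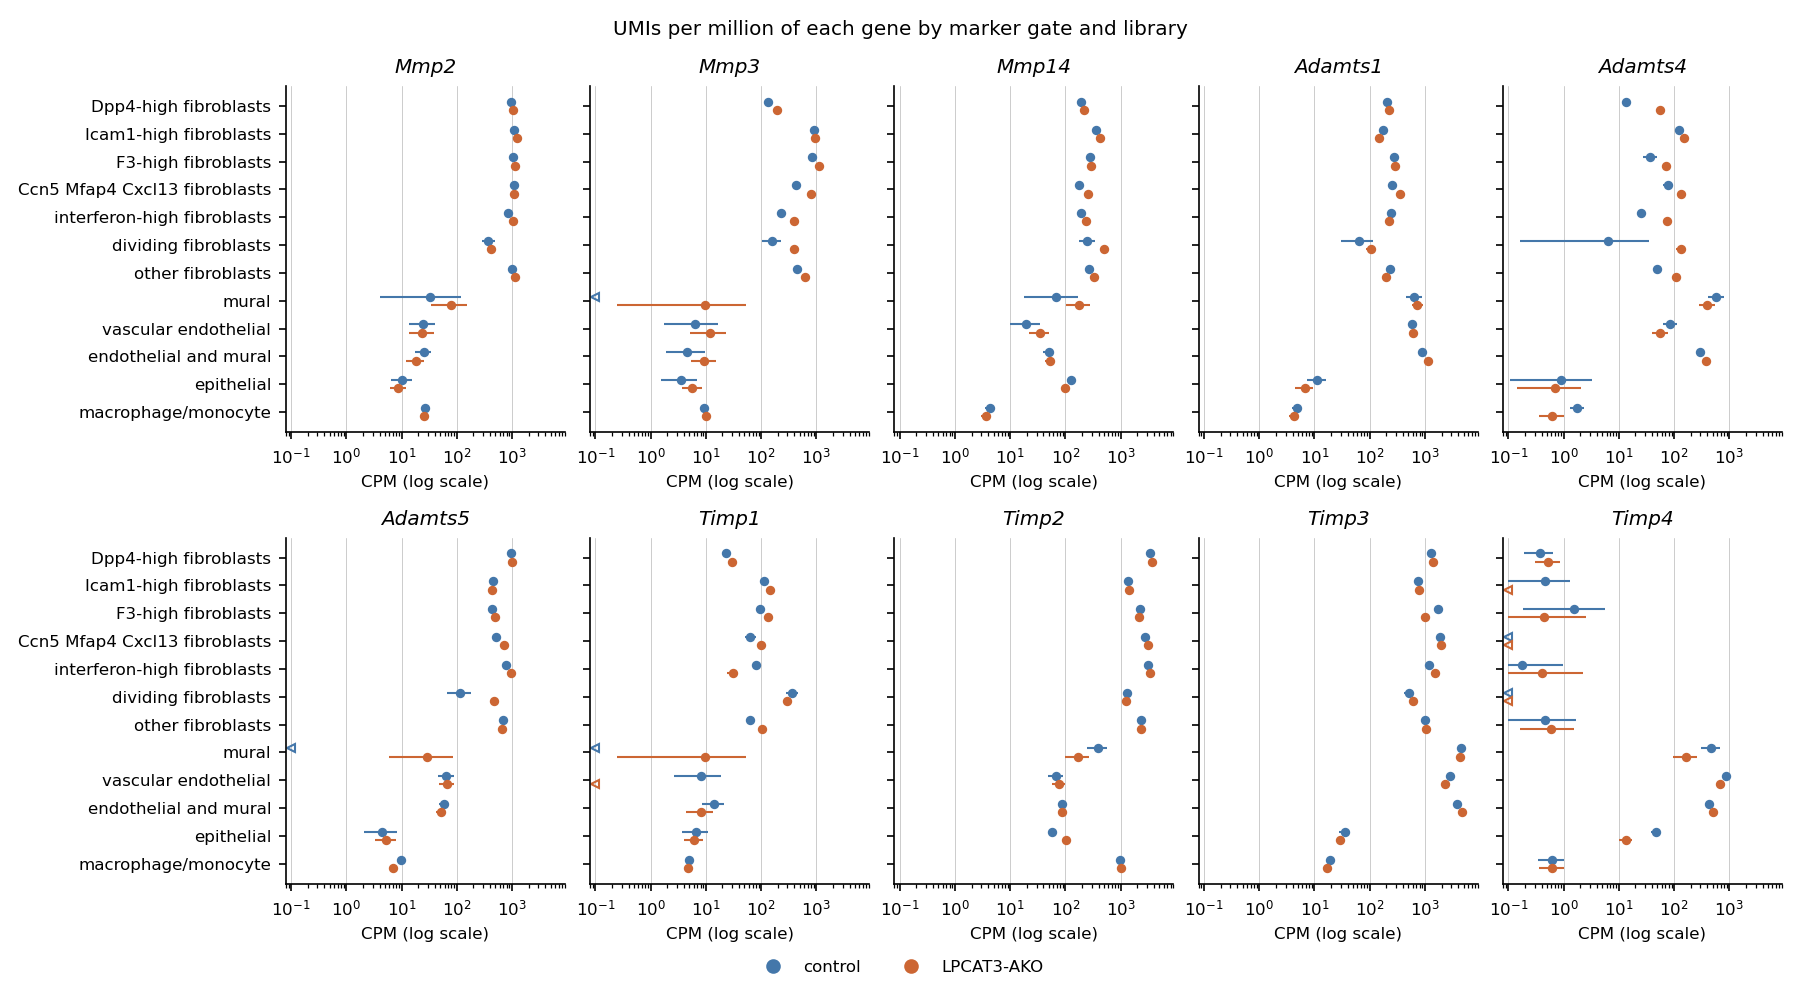
Level of each of the 10 genes (CPM, log axis) in 7 fibroblast states and in mural, vascular endothelial, endothelial and mural, epithelial and macrophage/monocyte cells, 1 point per library with its 95% Poisson counting interval; open triangles at the left edge mark 0 UMIs. Mmp2 and Adamts5 are high in the 6 fibroblast states with 50 or more cells, Adamts1, Timp3 and Timp4 are highest in vessel gates, and Timp2 is the one member that is also high in macrophages.

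The members divided the fibroblasts between the Dpp4-high gate, whose markers belong to interstitial progenitors, and the Icam1-high gate, whose markers belong to committed preadipocytes. Mmp3, Adamts4, Timp1 and Mmp14 were higher in Icam1-high cells, and Timp2, Adamts5, Timp3 and Adamts1 in Dpp4-high cells, in each library. Mmp3 had 132 CPM in Dpp4-high and 909.6 CPM in Icam1-high control cells, a ratio of 6.88 (6.61 to 7.15), and 191 against 948 CPM in the LPCAT3-AKO library, 4.95 (4.79 to 5.12). Timp1 had 22.9 against 113 CPM (4.92, 4.44 to 5.45) in control and 29.3 against 143 CPM (4.91, 4.50 to 5.35) in LPCAT3-AKO. Mmp14 in Icam1-high cells was at 1.85 and 1.99 times its Dpp4-high level. Timp2 went the other way, with 3466 against 1356 CPM in control and 3682 against 1429 CPM in LPCAT3-AKO, so that the Icam1-high level was 0.391 and 0.388 of the Dpp4-high one. For Adamts5 this ratio was 0.484 and 0.425, for Timp3 0.586 and 0.567, and for Adamts1 0.843 and 0.651. Mmp2 differed little between the gates, at 1.15 and 1.21.

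The 6 proteases made up 33.9% and 34.8% of all member UMIs in Dpp4-high cells and 58.4% and 58.7% in Icam1-high cells. Over the whole fibroblast gate the share was 37.3% in control and 40.6% in LPCAT3-AKO. These shares add UMIs of genes that are captured with unequal efficiency and do not measure enzyme activity.

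Adamts4 was the member whose contrast between the 2 gates differed most between the libraries. In Dpp4-high cells it had 13.6 CPM in control (446 UMIs) and 56.0 CPM in LPCAT3-AKO (1682 UMIs), a ratio of 4.11 (3.70 to 4.57). In Icam1-high cells it had 121 and 151 CPM, a ratio of 1.25 (1.14 to 1.36). The Icam1-high level was thus 8.84 times (7.86 to 9.95) the Dpp4-high level in control and 2.69 times (2.50 to 2.88) in LPCAT3-AKO. Whether that contrast differs between genotypes was not tested.

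The states repeated the Adamts4 difference in 5 of the 6 states with 50 or more cells in both libraries, and the background of called genes was larger in the small states. In Dpp4-high fibroblasts Adamts4 was the one member called, where 1.01% of genes were called higher and 0.709% lower. In Icam1-high fibroblasts no member was called (0.87% of genes higher, 0.935% lower). F3-high cells, whose markers F3 and Gdf10 mark a stromal subset, had 36.9 and 72.5 CPM of Adamts4 (1.96, 1.41 to 2.77), with 2.9% of genes called higher and 3.48% lower. One control cell held 35.4% of these UMIs, and without the richest cell of each library the ratio was 2.57. Interferon-high fibroblasts had 24.8 and 76.1 CPM (3.07, 2.45 to 3.84; 4.85% of genes higher, 6.38% lower). Cells with Ccn5, Mfap4 and Cxcl13 had 78.2 and 134 CPM (1.71, 1.34 to 2.19; 3.09% higher, 3.22% lower), and other fibroblasts 49.8 and 110.2 CPM (2.21, 1.90 to 2.59; 2.21% higher, 1.94% lower). Thinned to 2000 UMIs per cell, Adamts4 was no longer called in F3-high cells (1.91) or in the cells with Ccn5, Mfap4 and Cxcl13 (1.31), and with 1 more marker required the F3-high ratio was 1.29.

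Mmp3 was called higher in 2 states. It had 225 and 392 CPM in interferon-high fibroblasts (1.74, 1.60 to 1.89) and 429 and 794 CPM in the cells with Ccn5, Mfap4 and Cxcl13 (1.85, 1.67 to 2.05). The Dpp4-high ratio was 1.45 (1.39 to 1.51), the F3-high ratio 1.32 (1.23 to 1.42) from 852 and 1125 CPM, and the Icam1-high ratio 1.04 (1.01 to 1.08). The gate with the highest Mmp3 level was Icam1-high in control, where its interval (887 to 933 CPM) overlapped that of F3-high cells (802 to 903 CPM), and F3-high in LPCAT3-AKO. With 1 more marker required per gate, F3-high was highest for Mmp3 in both libraries.

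The calls among the inhibitors went in both directions. Timp1, an inhibitor of most secreted matrix metalloproteinases, had 63.9 and 98.9 CPM in the cells with Ccn5, Mfap4 and Cxcl13 (1.55, 1.18 to 2.05) and 62.9 and 105 CPM in other fibroblasts (1.66, 1.44 to 1.92). In interferon-high fibroblasts it was instead lower in LPCAT3-AKO, with 81.8 CPM (471 UMIs) in control and 31.0 CPM (77 UMIs), a ratio of 0.379 (0.294 to 0.483). A Timp1 UMI was seen in 37.1% of interferon-high control cells and 25.1% of LPCAT3-AKO cells, and in 10.5% and 6.64% once cells were thinned to 2000 UMIs. The richest control cell held 9.34% of the Timp1 UMIs, and without the richest cell of each library the ratio was 0.399. The calls that Timp1 was higher were less steady: with 1 more marker required per gate the ratio was 0.997 in the cells with Ccn5, Mfap4 and Cxcl13 and 1.22 in other fibroblasts. Timp3, which binds the matrix, was lower in LPCAT3-AKO F3-high cells, with 1692 and 990.4 CPM (0.585, 0.551 to 0.621). The share of F3-high cells with a Timp3 UMI was near equal, 63.8% and 62.5% when thinned and 80.6% and 83.1% before, and 1 cell per library held 14.2% and 16.3% of the UMIs. The F3-high mural markers summed to 130 and 154 CPM, and their part in the Timp3 values was not tested. Dividing fibroblasts were too few for a ratio, and 56 of the 58 Timp1 UMIs in the 8 control cells came from 1 cell.

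**Figure D2:**
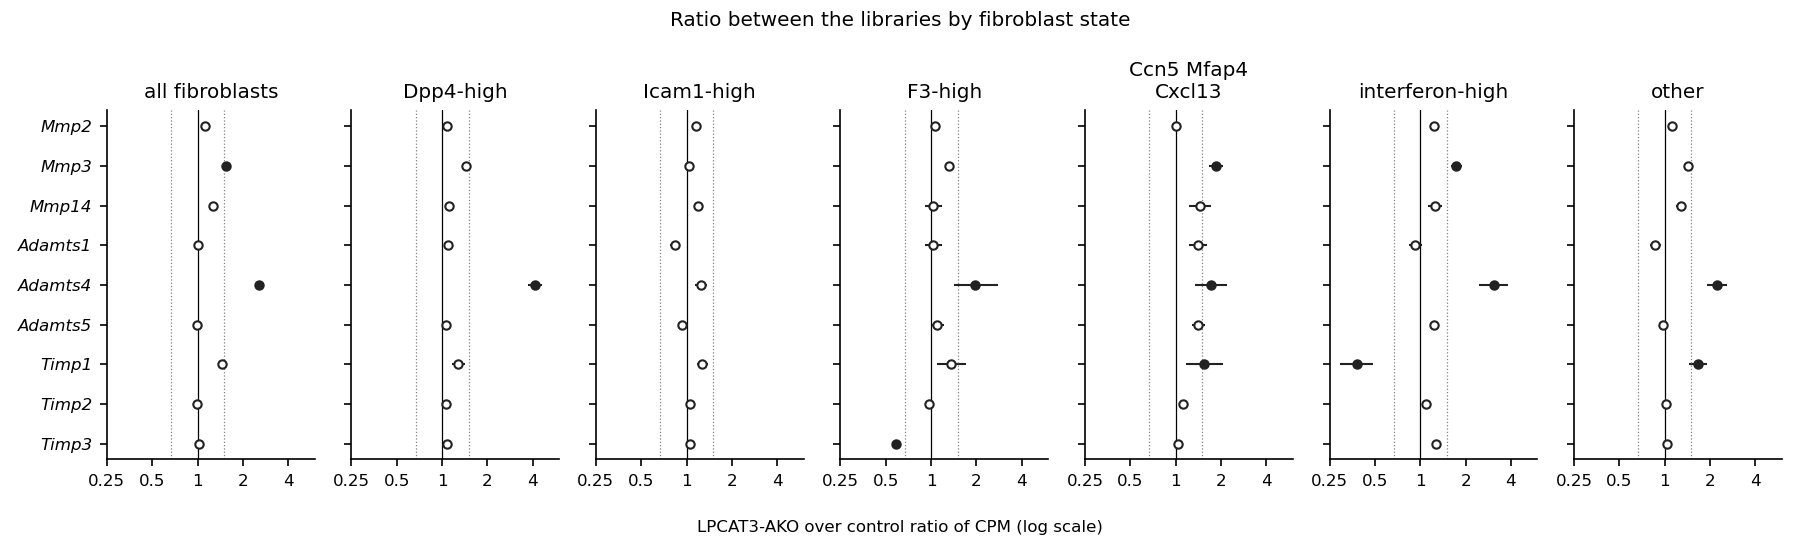
Ratio of the LPCAT3-AKO to the control level (log axis) of 9 members in all fibroblasts and in 6 fibroblast states, with 95% counting intervals; filled points are past the size rule and dotted lines mark 1.5-fold either way. Adamts4 lies to the right in every panel, Mmp3 to the right but near 1 in Icam1-high cells, and Timp1 to the left in interferon-high cells, while Mmp2, Timp2 and Adamts5 stay within 1.5-fold.

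Fibroblasts were then ordered by how many of the 8 Dpp4-high markers had a UMI, from 0 (157 control and 231 LPCAT3-AKO cells) to 8 (701 and 699 cells). Deeper cells show more markers, and the median depth rose along this order from 6645 to 10448 UMIs in control and from 5991 to 10306 in LPCAT3-AKO. Mmp3 went from 1197 CPM at 0 markers to 51.8 CPM at 8 markers in control, and from 1281 to 114 CPM in LPCAT3-AKO. Timp2 went from 1320.0 to 3916 CPM in control and from 1396 to 4049.8 CPM in LPCAT3-AKO, and Adamts5 from 425 to 962 and from 399.5 to 1064 CPM. Mmp3 and the pair of Timp2 and Adamts5 therefore ran in opposite directions along the markers in both libraries.

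The ratio between libraries of Adamts4 changed along the same order. At 0 markers Adamts4 had 146 CPM in control and 94.9 CPM in LPCAT3-AKO, a ratio of 0.648 (0.510 to 0.822). It was 1.23 (1.04 to 1.45) at 3 markers and 3.30 (2.71 to 4.03) at 4. At 8 markers the levels were 5.04 CPM (38 UMIs) and 44.5 CPM (335 UMIs), a ratio of 8.84 (6.31 to 12.7). Mmp3 had the same tendency on a smaller scale, with a ratio of 1.07 (0.995 to 1.15) at 0 markers and 2.19 (1.94 to 2.48) at 8. The ratios of both proteases were thus greatest in the cells with most Dpp4-high markers, where their own levels were lowest. The gap in CPM was widest within the order, with 51.2 and 169 CPM of Adamts4 at 4 markers and 734 and 1001 CPM of Mmp3 at 3. It was narrower again at 2 markers, with 110 and 133 CPM of Adamts4 and 878 and 941 CPM of Mmp3. Red cell haemoglobin genes summed to 49.0 and 137 CPM in Dpp4-high cells, macrophage markers to 195 and 202 CPM and Icam1-high markers to 555 and 734 CPM, and their part in this result was not tested.

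**Figure D3:**
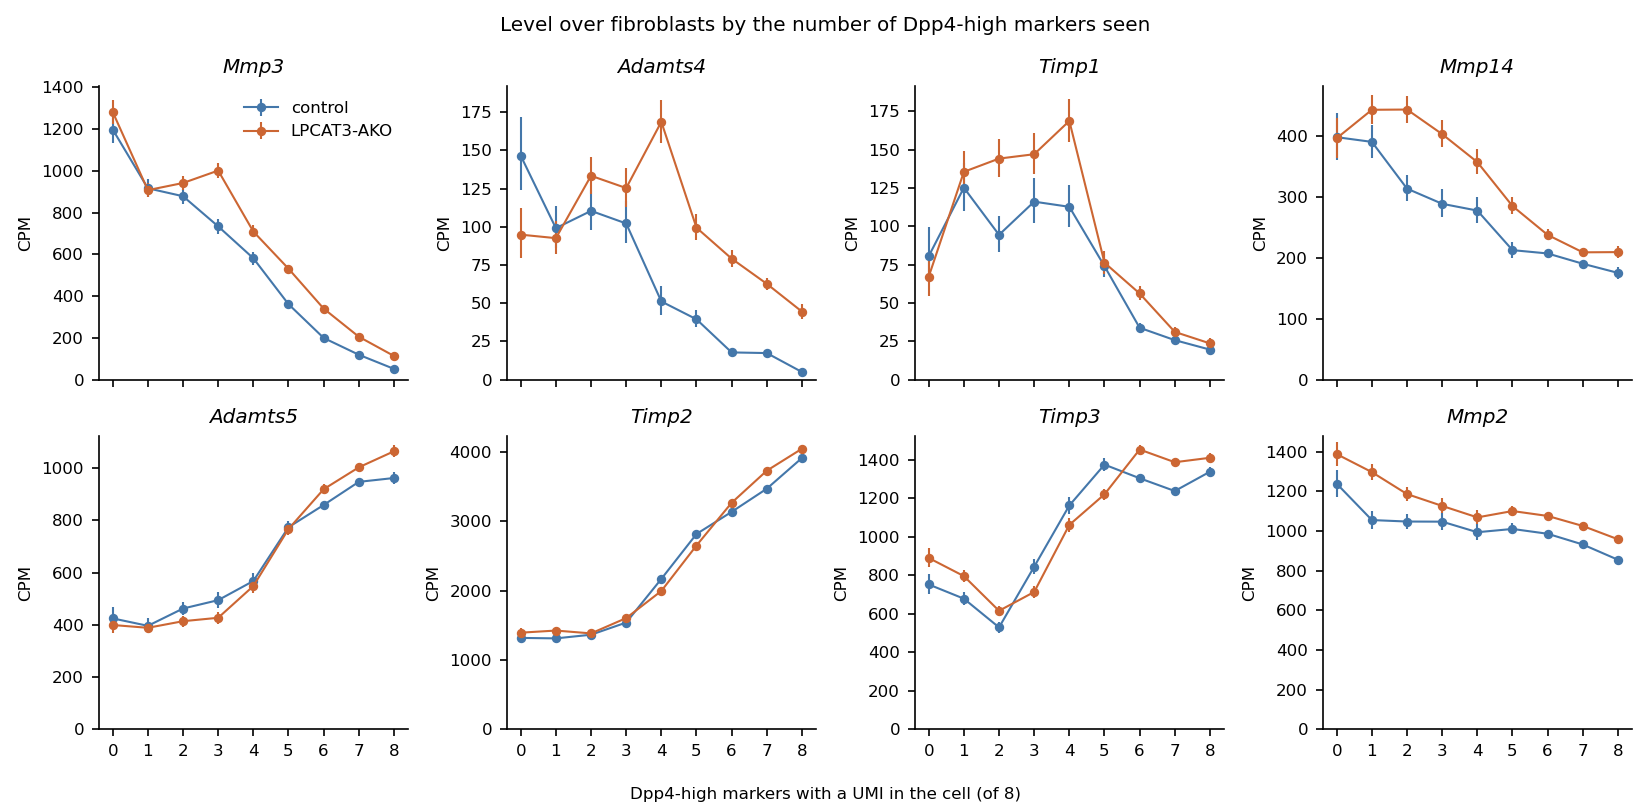
Level (CPM) of 8 members in fibroblasts with 0 to 8 Dpp4-high markers seen, 1 line per library with 95% Poisson counting intervals. Mmp3, Adamts4 and Mmp14 are lower and Timp2, Timp3 and Adamts5 higher at 8 markers than at 0. The ratio between the libraries is greatest for Adamts4, at 5.04 and 44.5 CPM with 8 markers.

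Adamts4 was detected in a minority of fibroblasts. An Adamts4 UMI was found in 11.3% of the control fibroblasts and 20.4% of the LPCAT3-AKO fibroblasts (median depths 9464 and 9187 UMIs), against 0.772% and 0.546% of macrophages/monocytes (6592 and 8174 UMIs). Thinned to 2000 UMIs, the shares were 4.28% and 8.99% in fibroblasts and 0.256% and 0.222% in macrophages/monocytes. The fibroblast shares were therefore well above that of the leukocytes at equal depth. Thinned shares were 1.60% and 6.22% in Dpp4-high cells and 15.3% in both libraries in Icam1-high cells. For Mmp3, the thinned share was 22.6% and 32.0% of fibroblasts (39.9% and 47.9% before), against 2.04% and 2.62% of macrophages/monocytes (6.42% and 8.84% before).

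Adamts4 was seen in a larger share of the cells that also showed Adamts1. Among thinned Dpp4-high cells with an Adamts1 UMI, 2.74% of control and 11.1% of LPCAT3-AKO cells had an Adamts4 UMI, against 1.19% and 4.46% of those without. In Icam1-high cells the shares were 22.5% and 24.9% with Adamts1 against 13.3% and 12.9% without. In cells with endothelial and mural markers they were 52.5% and 39.5% against 23.5% and 2.78%. The direction was the same in the 3 gates examined and both libraries, and the intervals of the shares with and without Adamts1 overlapped in the control Icam1-high cells and in the control cells with endothelial and mural markers. It was 1 of 5 gene pairs examined. Cells with Adamts4 also showed Timp1 in a larger share: 12.7% and 7.69% against 4.18% and 4.32% of cells without in the Dpp4-high gate, and 24.1% and 18.2% against 13.3% and 11.4% in the Icam1-high gate. The intervals overlapped in LPCAT3-AKO cells of both gates, and the 12.7% in control was 7 of 55 cells. Mmp3 and Adamts4, the 2 members called higher in fibroblasts, did not share this pattern of detection in Icam1-high cells. There, 15.9% and 14.7% of cells with Mmp3 and 14.6% and 16.1% of those without had an Adamts4 UMI.

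**Figure D4:**
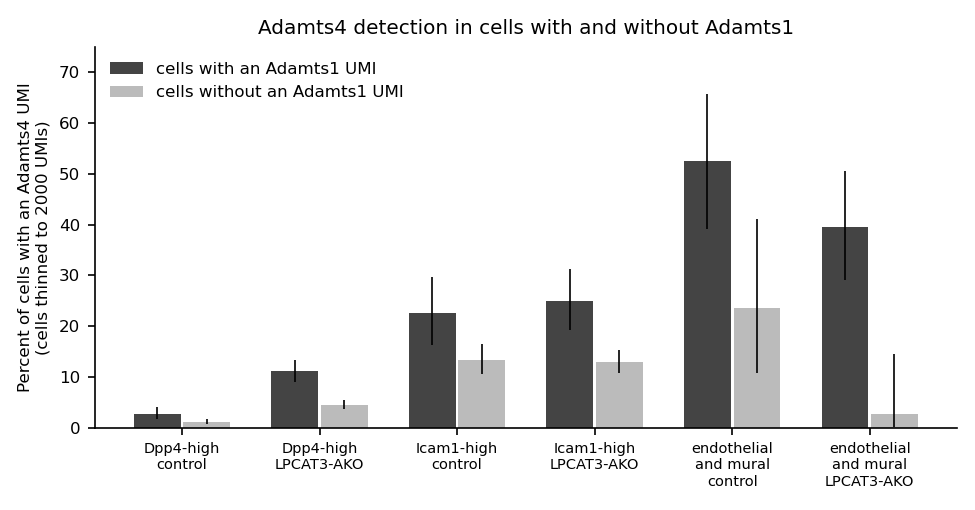
Percent of cells with an Adamts4 UMI, after thinning to 2000 UMIs, among cells with and without an Adamts1 UMI in Dpp4-high fibroblasts, Icam1-high fibroblasts and cells with endothelial and mural markers; bars carry 95% Clopper-Pearson intervals and are drawn for each library. The bar with Adamts1 is the taller one in each of the 6 pairs.

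A list of 10 immediate-early genes, which are known to respond to tissue digestion, was read beside Adamts4. It was chosen after the values were seen and holds Fos, Jun, Egr1 and Atf3 among others. They summed to 13727 CPM in control and 11731 CPM in LPCAT3-AKO fibroblasts, and to 13690 and 11432 CPM in Dpp4-high cells, and their part in the Adamts4 values was not tested. In Icam1-high cells they summed to 16174 and 14560 CPM.

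Adamts1, Timp3 and Timp4 had their highest levels in vessel gates. Adamts1 and Timp3 were not confined to them: fibroblasts with Ccn5, Mfap4 and Cxcl13 had 1904 and 1978 CPM of Timp3 and 249.7 and 352 CPM of Adamts1. Adamts1, which besides cutting versican is known to restrain vessel growth, had 587 and 606 CPM in vascular endothelial cells and 899 and 1155 CPM in cells with both endothelial and mural markers. These levels were 2.82 and 2.88 times, and 4.31 and 5.49 times, those of fibroblasts. Timp3 had 2831 and 2282 CPM in vascular endothelial cells (2.37 and 1.86 times fibroblasts) and 3854 and 4599 CPM in cells with both sets of markers (3.22 and 3.75 times). The 11 and 24 mural cells had 4563 and 4316 CPM of Timp3 and 631 and 731 CPM of Adamts1. Mural markers summed to 299 and 283 CPM in the vascular endothelial gate and to 3166 and 4084 CPM in the gate with both, and their part in the Adamts1 and Timp3 levels was not tested. Median depth was 15301 and 13029 UMIs in the gate with both. It was 5732 and 4876 UMIs in vascular endothelial cells and 5376 and 3928 UMIs in mural cells. Whether cells with both sets of markers are doublets of endothelial and mural cells was not tested.

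Timp4, an inhibitor of narrower tissue range than its relatives, was seen mostly in vessel gates and the epithelium. It had 863 CPM (532 UMIs) and 674 CPM (455 UMIs) in vascular endothelial cells, 433 and 501 CPM in cells with endothelial and mural markers, and 0.384 and 0.411 CPM in fibroblasts. The vascular endothelial level was 2247 times (1440 to 3709) the fibroblast level in control and 1641 times (1071 to 2645) in LPCAT3-AKO. Thinned to 2000 UMIs, 64.0% and 60.0% of vascular endothelial cells had a Timp4 UMI (75.8% and 65.0% before; median depths 5732 and 4876 UMIs), against 0.0558% and 0.0722% of fibroblasts (0.346% and 0.390% before). Timp4 was thus seen in most endothelial cells and hardly any fibroblast of either library.

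Adamts4 was also high in vessel gates, with 301 and 377 CPM in cells with endothelial and mural markers, 86.0 and 56.3 CPM in vascular endothelial cells and 581 and 399 CPM in the few mural cells. One control mural cell held 71.4% of the mural Adamts4 UMIs. The vascular endothelial ratio was 0.655 (0.420 to 1.01) and the ratio in cells with both sets of markers was 1.25 (1.11 to 1.42), so the fibroblast difference was not seen at that size in vessels. No member was called in vascular endothelial cells (3.67% of genes higher, 2.67% lower) or in cells with both sets of markers (3.04% higher, 2.32% lower). With 1 more marker required, Adamts4 was called lower in vascular endothelial cells (0.626), and with each cell weighted alike Mmp2 was called higher there (1.51). Timp4 in vascular endothelial cells had a ratio of 0.781 (0.688 to 0.887).

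Epithelial cells had 2 members called, Timp2 higher and Timp4 lower, where 6.84% of genes were called higher and 5.57% lower. Timp2 had 58.2 and 100.5 CPM (1.72, 1.41 to 2.11), which is 1.93% and 3.37% of its fibroblast level, and a ratio of 1.24 without doublet removal. The 10 fibroblast markers stood in these cells at 0.676% to 4.74% of their fibroblast level in control and 0.377% to 3.55% in LPCAT3-AKO, so Timp2 lay within their range in both libraries. Gsn set the top of this range in both, and the marker medians were 0.939% and 0.730%, under the Timp2 values. The fibroblast marker Dcn was called higher beside Timp2, with 175 and 263 CPM. Timp4 had 46.7 CPM (105 UMIs) in control and 13.5 CPM (57 UMIs) in LPCAT3-AKO, a ratio of 0.289 (0.205 to 0.402). A Timp4 UMI was seen in 39 of 104 control cells (37.5%) and 25 of 185 LPCAT3-AKO cells (13.5%), and in 8.82% and 2.72% of thinned cells. With cells thinned, neither gene was called, at ratios of 1.92 for Timp2 and 0.436 for Timp4. Endothelial markers summed to 43.6 CPM in the control epithelial cells with a Timp4 UMI and 45.1 CPM in those without, and to 67.1 and 59.3 CPM in the LPCAT3-AKO ones. Timp4 lies inside an intron of the synapsin gene Syn2 on the opposite strand, and Syn2 had 323 and 114 CPM in the same epithelial cells. The use of strand in counting is not stated, and whether UMIs of Syn2 were counted for Timp4 there was not tested. The epithelial Timp4 values are therefore uncertain. In vascular endothelial cells Syn2 had 21.1 and 25.2 CPM, far under the Timp4 level. The dividing markers differed too, at 219.7 and 723 CPM over the epithelial cells, and the 10 immediate-early genes summed to 4371 and 8467 CPM. The part of the fibroblast, dividing and immediate-early genes in the Timp4 and Timp2 values was not tested. The membrane protease Mmp14 had 124 and 100.2 CPM in epithelial cells, a ratio of 0.811 (0.695 to 0.947).

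In macrophages and monocytes, Timp2 was the member that stood far above the fibroblast markers. Those markers stood there at 1.33% to 3.62% of their fibroblast level in control and 1.04% to 3.21% in LPCAT3-AKO. Gsn set the top of this range in both libraries, and the marker medians were 1.86% and 1.60%. Whether these cells make Gsn themselves was not tested. Timp2 stood at 31.7% and 34.6% of its fibroblast level, with 956 and 1033 CPM, while in dendritic cells it stood at 1.93% and 1.91%. Mmp2, Mmp3, Mmp14, Adamts1 and Timp3 lay within the marker range of macrophages in both libraries, and Adamts5 just below it at 1.18% and 0.848%. Timp1 was above the range, at 10.5% and 6.80%, from 131 and 121 UMIs, and in dendritic cells at 11.8% and 7.66%. Its level differed between macrophage states, at 31.0% and 27.2% in macrophages with Lyz1 and Retnla and 4.03% and 3.92% in the resident macrophages described below. Over the whole macrophage/monocyte gate, Adamts4 was at 5.28% in control, where 1 cell held 21.7% of its 46 UMIs, and at 0.740% in LPCAT3-AKO. Timp4 had 16 UMIs in each library, at most 0.629 CPM.

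**Figure D5:**
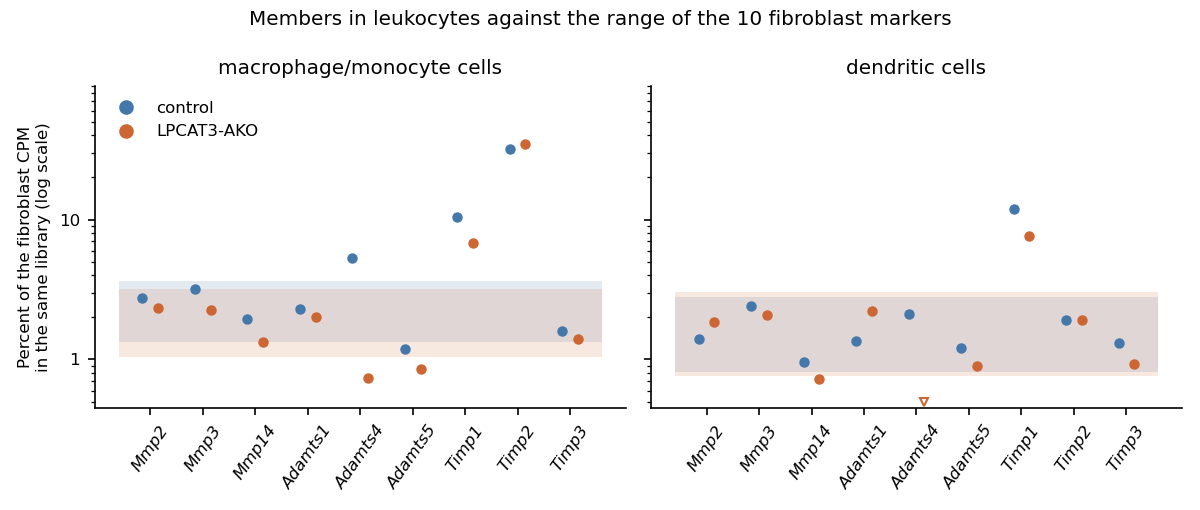
Level of 9 members in macrophage/monocyte and dendritic cells as a percent of their fibroblast level (log axis), for each library; the shaded band is the range of the 10 fibroblast markers in the same cells and an open triangle marks 0 UMIs. Timp2 in macrophages, at 31.7% and 34.6%, lies far above the band, and in dendritic cells it lies inside it.

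Timp2 followed the macrophage states. It had 1119.8 and 1296 CPM in resident macrophages (markers such as Lyve1 and Folr2), 1059 and 1195 CPM in interferon-high macrophages, 355 and 395 CPM in macrophages with Lyz1 and Retnla, and 322 and 281 CPM in monocytes. The resident level was therefore the highest of these in each library. A Timp2 UMI was seen in 95.5% and 96.3% of macrophages/monocytes, and in 79.7% and 79.0% of thinned cells. The ratio between libraries was 1.08 over the whole gate and was not a call (1.37% of genes higher, 0.603% lower). In dividing macrophages it was called, with 359.6 and 699.9 CPM (1.95, 1.75 to 2.17), where 11.3% of genes were called higher and 4.35% lower. Resident markers summed there to 2845 CPM in control and 4971 CPM in LPCAT3-AKO, and their part in the Timp2 value was not tested.

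Other genes of matrix breakdown were read in fibroblasts, where 1.32% of all genes at 20 CPM were called higher and 0.81% lower. Lists this short would hold few or no calls at that background. None of 17 other matrix metalloproteinases (3 at 20 CPM), 16 other ADAMTS genes (4 at 20 CPM), 8 ADAM genes (7), 7 plasminogen genes (4) or 6 cathepsin and cystatin genes (5) was called in either direction. Among them Mmp23 had 188 and 182 CPM, Mmp19 100.2 and 98.4 CPM, the procollagen N-proteinase Adamts2 428 and 482 CPM, and Adamts12 124 and 158 CPM. The plasminogen activators Plat (249.8 and 281 CPM) and Plau (59.6 and 59.7 CPM), and the lysosomal cathepsins Ctsl (946 and 1007 CPM) and Ctsb (578 and 697 CPM), were also not called. The ADAM genes with the highest levels were Adam33 (111 and 103 CPM) and Adam15 (75.9 and 75.8 CPM).

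The remaining lists each held 1 call. Of 14 activators, other inhibitors and clearance genes, 12 were at 20 CPM and 1 was higher: Pcolce, the enhancer of procollagen C-proteinase, with 319.8 and 515 CPM (1.61, 1.58 to 1.64). Its relative Pcolce2 had 731 and 705 CPM, and Lrp1, the receptor that clears proteases and TIMPs, had 544 and 643 CPM. Of 10 matrix substrates, 7 were at 20 CPM and 1 was higher: the small proteoglycan Bgn, with 252 and 448 CPM (1.78, 1.74 to 1.82). Fn1 had 3689 and 4056 CPM and Dcn, which is also a gate marker, 8123 and 8753 CPM.

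The genes whose levels ran most like each member were found by Pearson's r of log2(CPM + 1) over 17 gates in both libraries (34 points, 10512 genes). The points share libraries, depth and gate markers, so r is a description. Mmp2 was nearest to Dpt and Dpep1 (both 0.988) and Medag (0.986), and Mmp3 to Lum (0.986), S100b (0.984) and Srpx (0.976). Dpt and Lum are markers of the fibroblast gate. Mmp14 was nearest to Itih5 (0.971), C1qtnf6 (0.965) and Maged1 (0.953), and Timp1 to Il1rl2 (0.905), Mrc2 (0.894) and Svep1 (0.890). Adamts1 and Timp3 were near each other (0.986), Adamts1 with Ramp2 (0.980) and Ehd2 (0.979) next, and Timp3 with Fbxl7 (0.986) and Syn3 (0.983). Syn3 is the synapsin gene that hosts Timp3 on the opposite strand, so the pair may share UMIs, although Syn3 had 34.6 and 31.3 CPM in fibroblasts. Adamts4 was nearest to Pth1r and Sparc (both 0.957) and Hspg2 (0.955), Adamts5 to Fstl1 (0.984), Nid1 (0.983) and Zbtb20 (0.978), Timp2 to Pnp (0.947), Rnase4 (0.942) and C4b (0.940), and Timp4 to Spns2 (0.980), Mall (0.978) and Sema3f (0.974).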

How the data were processed

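Raw UMI counts per gene and barcode, as whole numbers without normalization, were deposited by the authors for 2 libraries. Named in the submitters' processing notes, without roles, are the tools Seurat 4.10 and Cell Ranger 6.1.2 and the genome build mm10. For the gene annotation and the use of strand, the labels say nothing. Each matrix listed 32285 genes, of which 32245 had a symbol of their own or the most UMIs among entries sharing one; the other 40 were left out.

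Barcodes with 500 or more genes and at most 10% of UMIs from mt- genes were kept (12426 control, 11664 LPCAT3-AKO). The cells with the highest Scrublet scores (scanpy 1.11.5), 0.8% per 1000 kept cells, were removed as doublets (1235 and 1088). A cell entered a gate when it had UMIs of a minimum number of the markers of that gate (8 of 10 for fibroblasts, 7 of 10 for macrophages/monocytes, 6 of 10 for vascular endothelial, 5 of 10 for mural and for epithelial cells, 5 of 8 for Dpp4-high and Icam1-high fibroblasts). These minimums were set after the marker counts had been seen. At the fibroblast minimum lay 122 cells of each library, and 1 marker below it 247 and 323. Cells passing several gates (138 and 294) or none (1189 and 1008) were left out, except for the endothelial and mural gate.

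UMIs were summed per gate and library. CPM carry exact Poisson, shares exact Clopper-Pearson, and ratios exact binomial 95% intervals, computed with Python 3.11.15, numpy 2.4.6, scipy 1.17.1 and pandas 2.3.3. The size rule was tested on simulated sums that held counting error only, so that test does not cover spread between cells, animals or libraries. Ratios needed 50 cells in both libraries, and log2 ratios are of CPM + 1. Shares of cells were also computed with each cell thinned to 2000 UMIs, shallower cells left out.

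All 10 members were described. From each list of related genes, the 2 with the highest control fibroblast CPM and each called gene were named, and for each member the 3 most alike genes. The members and the gene and marker lists were chosen with earlier results of these data known. The alternatives were other doublet, gate, barcode, weighting, thinning and scaling choices. The study's bulk RNA sequencing was not analysed here.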

Additional observations from a re-analysis of the deposited data

Results flagged for a closer look

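Timp1, the inhibitor of secreted metalloproteinases, differed between the libraries in opposite directions in different fibroblast states. The log2 ratio of LPCAT3-AKO over control was 0.62 in the fibroblasts with Ccn5, Mfap4 and Cxcl13, 0.72 in other fibroblasts and -1.37 in interferon-high fibroblasts. The positive values were less steady: with 1 more marker required, the ratios there were 0.997 and 1.22 and neither was a call. With 1 library per group, the difference between these states was not tested.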

How the results depend on the processing

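No paired analysis was possible because each group is 1 library and the labels carry no replicate numbers; for the same reason no replicate could be left out, and the spread between animals is unknown. The 2 members called in fibroblasts (Mmp3 and Adamts4) became 1 (Adamts4) with a required ratio of 2 and with the states weighted alike. They became 3, with Timp1 at a ratio of 1.59, without interferon-high and dividing fibroblasts, and stayed 2 under the other alternatives. In the states, the 11 calls were 10 to 11 under the 4 alternatives run there, but not the same ones: thinning lost 3 and gained 3. Ratios reached 2 either way in 4 of the 11. In the vascular endothelial, endothelial and mural, epithelial and macrophage/monocyte gates the 2 calls were 4 with each cell weighted alike, 1 without doublet removal and 0 with cells thinned. They were 3 with 1 more marker required and 4 when epithelial cells could pass other gates, an alternative chosen after seeing the data. The mural gate was too small for a ratio and is not part of these counts. The protease share of member UMIs in fibroblasts was 38.1% (control) and 41.1% (LPCAT3-AKO) with cells thinned, and 37.7% and 40.9% without doublet removal. Of 490 single-member alternatives, 366 moved within the interval, 123 beyond it and 1 was counted as reversed. That was Timp1 in the fibroblasts with Ccn5, Mfap4 and Cxcl13, with a log2 ratio of -0.00484 with 1 more marker required. A reversal was counted only where the main setting gave a call, so uncalled members that changed direction are among the others. In epithelial cells, for example, the Timp3 ratio went from 0.817 to 1.60 with each cell weighted alike. Calls were lost in 12 and gained in 13, and thinning, which leaves fewer UMIs, ended both epithelial calls. Without the richest cell of each library, an alternative chosen after seeing the data, the 15 calls in fibroblasts, their states and epithelial cells were kept; the Timp2 call in dividing macrophages was not run in this way. The gate with the highest level differed between the libraries for Mmp3; it also did for Mmp2 without doublet removal, and for Mmp2, Adamts5 and Timp1 but not Mmp3 with 1 more marker required. Few UMIs limit Timp4 in fibroblasts and Timp1 in vessels, and few cells limit every member in the mural and dividing fibroblast gates.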
